A study of Rattus norvegicus with 9 samples.

Results

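The endoplasmic reticulum (ER) stress sensors and chaperones described here are 10 genes: Ern1, Atf6, Xbp1, Hspa5, Hsp90b1, Hyou1, Dnajb9, Sdf2l1, Pdia4 and Herpud1. They were chosen by symbol from the 18629 genes of the authors' table, each stood on 1 line, and all 10 were abundant enough to be tested among 13708 genes. Messenger RNA was measured in 9 libraries of primary cardiomyocytes from Sprague-Dawley rats aged 1 to 2 days. Of these, 3 carried adenovirus with Yap1 (Yap1 WT), 3 carried adenovirus with a short hairpin RNA against Yap1 (Yap1 shRNA) and 3 carried adenovirus with green fluorescent protein (GFP, the control). All 9 cultures had spent 14 h in 1 g/L glucose with 1% serum and then 48 h in 33 mM glucose with 100 nM insulin, so every group carried a virus and the high-glucose medium. The hairpin had no control hairpin beside it, the labels state neither the species of the Yap1 cDNA nor the virus dose, and they do not say whether the replicates were separate isolations, so p-values measure only the spread between these libraries.

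Proteins that enter the ER are folded by chaperones, and an excess of unfolded protein sets off the unfolded protein response. The chaperone BiP, product of Hspa5, sits on the sensors and leaves them when unfolded protein accumulates. IRE1 (Ern1) then splices Xbp1 messenger RNA so that it encodes an active transcription factor, ATF6 is cut in the Golgi to release another, and PERK (Eif2ak3) slows translation and raises ATF4. XBP1 and ATF6 act through ER stress elements in the promoters of chaperone and degradation genes, and the cardiomyocyte uses this pathway to keep secreted and membrane proteins in order.

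The promoters with such elements are shown first. With Yap1 shRNA, the messages of 4 of the 5 genes that carry them were higher and that of Hyou1 was lower. Of all genes tested, 39.2% were higher there and 39.1% lower. Dnajb9, which rose most, had no match, and Ern1 and Atf6, also higher, had no window. A link between the elements and these changes was not tested. RefSeq promoter windows on build GRCr8, running from 250 bases before to 50 bases after the start of transcription, were found for 8 of the 10 genes by gene ID, with 2 windows for Hyou1. No window was at hand for Ern1 and Atf6. Each window was searched on both strands for the ER stress element (CCAAT and CCACG with any 9 bases between), the second element (ATTGG and CCACG with any 1 base between) and the unfolded protein response element (TGACGTGG). These were present in 0.0657%, 0.0508% and 0.595% of 33469 rat promoter windows of the same length. At least 1 match was present in a window of 5 of the 8 genes, and in 0.708% of all windows. The first is a count of genes and the second a share of windows. The genes were picked for their part in this response, so the difference is a description and no test. The 250 bases before the start are printed 5′ to 3′ on the strand of the gene, with matches in capitals.
Hspa5, chr3:38452766-38453015, plus strand: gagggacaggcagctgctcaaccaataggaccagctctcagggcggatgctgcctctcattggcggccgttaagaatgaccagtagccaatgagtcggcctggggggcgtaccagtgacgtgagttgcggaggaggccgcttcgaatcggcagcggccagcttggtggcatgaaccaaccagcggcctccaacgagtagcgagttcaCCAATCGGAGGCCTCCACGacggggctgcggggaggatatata
Hsp90b1, chr7:23012294-23012543, minus strand: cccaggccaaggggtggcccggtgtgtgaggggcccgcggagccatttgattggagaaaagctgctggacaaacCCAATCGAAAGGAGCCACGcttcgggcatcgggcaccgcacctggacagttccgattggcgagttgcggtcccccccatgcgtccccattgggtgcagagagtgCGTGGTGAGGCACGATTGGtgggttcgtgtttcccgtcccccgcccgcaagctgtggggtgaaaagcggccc
Xbp1, chr14:84604373-84604622, plus strand: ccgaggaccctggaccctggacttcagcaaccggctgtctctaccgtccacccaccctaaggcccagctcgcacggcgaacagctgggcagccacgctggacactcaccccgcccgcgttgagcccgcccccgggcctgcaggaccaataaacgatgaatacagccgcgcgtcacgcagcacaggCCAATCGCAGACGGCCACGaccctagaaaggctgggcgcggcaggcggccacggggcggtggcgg
Herpud1, chr19:10614708-10614957, minus strand: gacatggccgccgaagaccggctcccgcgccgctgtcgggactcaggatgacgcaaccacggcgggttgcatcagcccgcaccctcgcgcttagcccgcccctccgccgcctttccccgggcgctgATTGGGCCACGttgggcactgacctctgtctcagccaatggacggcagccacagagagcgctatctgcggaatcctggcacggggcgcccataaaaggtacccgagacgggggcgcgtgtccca
Hyou1, chr8:53602632-53602881, plus strand: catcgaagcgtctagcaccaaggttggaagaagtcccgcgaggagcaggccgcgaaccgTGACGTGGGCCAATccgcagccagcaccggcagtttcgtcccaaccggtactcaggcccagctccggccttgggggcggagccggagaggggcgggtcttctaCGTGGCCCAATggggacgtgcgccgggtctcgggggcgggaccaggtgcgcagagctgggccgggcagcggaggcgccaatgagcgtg
Hspa5 and Xbp1 held 1 ER stress element each, with its first base 43 and 65 bases before the start, and Hsp90b1 held 2, the one nearer the start on the opposite strand. Herpud1 held 1 second element. The first Hyou1 window held 2 second elements on the opposite strand and 1 unfolded protein response element that overlaps the farther of them. Dnajb9, Sdf2l1, Pdia4 and the other Hyou1 window had no match to these letters. A match is a description of the sequence and was not tested for activity.

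The libraries held 10960051 to 11497104 assigned reads with Yap1 WT, 6103221 to 6357403 with Yap1 shRNA and 14868180 to 15368473 with GFP. Mean depth was therefore 0.736 (Yap1 WT) and 0.413 (Yap1 shRNA) of the GFP mean, and counts thinned to equal depth gave the same calls for the 10 genes in all 3 comparisons. The vectors moved Yap1 as labelled, to 664 ± 132 CPM (the count scaled to the library's size after TMM) with Yap1 WT and 95.6 ± 0.36 CPM with Yap1 shRNA, against 195 ± 4.36 CPM with GFP (SD, n = 3 each). The messages of cell type markers moved as well. All 10 cardiomyocyte markers were present, and their summed level lay at 7457 to 9966 TPM (the authors' level per transcript length and library size) with Yap1 WT and 2019 to 2454 TPM with Yap1 shRNA, against 19043 to 19758 TPM with GFP. All 10 passed as lower in both Yap1 groups in the edgeR test described below. Of all genes tested, 31.8% were lower with Yap1 WT and 39.1% with Yap1 shRNA. The sum of 10 fibroblast markers was 3488 to 4702 TPM with Yap1 WT, 2223 to 2467 TPM with Yap1 shRNA and 4593 to 5053 TPM with GFP. Of these 10 markers, 3 passed as higher and 6 as lower with Yap1 WT, and 1 as higher and 9 as lower with Yap1 shRNA. The shares of all genes that were higher were 32% with Yap1 WT and 39.2% with Yap1 shRNA, beside the shares lower given above. Dcn, singled out after its values were seen, was 3.71-fold higher with Yap1 WT and 3.49-fold higher with Yap1 shRNA. The sum of 9 smooth muscle and pericyte markers was 4641 to 6322 TPM with Yap1 WT, 4397 to 4735 TPM with Yap1 shRNA and 9693 to 10101 TPM with GFP. Of the 8 that were tested, 1 passed as higher and 6 as lower with Yap1 WT, and 1 as higher and 7 as lower with Yap1 shRNA, beside the same shares of all genes. Markers of other cells were low. The sum of 9 endothelial markers was 26.4 to 28.2 TPM with Yap1 WT, 38.3 to 41.4 TPM with Yap1 shRNA and 18.7 to 19.9 TPM with GFP. That of 9 macrophage markers was 78.1 to 79.5 TPM with Yap1 WT, 34.4 to 49.9 TPM with Yap1 shRNA, where C1qb was at 0, and 58.7 to 64.0 TPM with GFP. That of 8 epicardial markers was 50.1 to 52.4 TPM with Yap1 WT, 41.8 to 45.8 TPM with Yap1 shRNA and 54.3 to 55.2 TPM with GFP. This sum hides moves in both directions: 2 passed as higher and 5 as lower with Yap1 WT, and 3 and 4 with Yap1 shRNA, beside the same shares of all genes. Their log2 fold changes with Yap1 shRNA ran from -7.66 to 1.33. The sum of 5 neural and glial markers was 45.0 to 54.5 TPM with Yap1 WT, 130 to 142 TPM with Yap1 shRNA and 30.5 to 31.0 TPM with GFP. The sum of 3 erythroid markers was at most 1.42 TPM in any library, with Hbb at 0 in Yap1 shRNA and in GFP and Hba-a1 at 0 in Yap1 WT and in GFP. In such bulk samples fewer cells of a type and less RNA per cell cannot be told apart, and the part of these shifts in the results was not tested.

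The 10 messages split in the cells with the Yap1 hairpin. With Yap1 shRNA, 7 were higher than with GFP and 3 were lower, and all 10 passed the test (edgeR's quasi-likelihood test, Benjamini-Hochberg adjusted p under 0.05), where 78.3% of the 13708 genes tested did so (39.2% higher and 39.1% lower). Both sensors, their transcription factor, BiP, its cochaperone Dnajb9 and the degradation adaptor Herpud1 were higher, with Hsp90b1 rising least, whereas the chaperones Hyou1, Sdf2l1 and Pdia4 were lower. With Yap1 WT, 5 were higher, 3 were lower and 2 did not pass, where 63.8% of all genes passed (32% higher and 31.8% lower). With library size as the only scaling the split with Yap1 WT was 6 higher and 2 lower, and on log2(TPM + 1) it was 6 higher and 0 lower. The background moved as well: of the 13708 genes, 5637 were higher and 3344 lower with library size alone. On log2(TPM + 1), 5419 were higher and 2894 lower. The changes with Yap1 WT were smaller: none reached 2-fold, where 16.6% of all genes were called at 2-fold or more, while 4 of 10 reached it with Yap1 shRNA, where 35.8% of all genes did. The median log2 fold change of the 10 was 0.17 with Yap1 WT and 0.67 with Yap1 shRNA, beside 0.003 and -0.01 over all genes tested. The CPM of the groups did not overlap for 8 of 10 genes with Yap1 WT against GFP and for 10 of 10 with Yap1 shRNA against GFP, where 70.7% and 80.2% of all genes did not overlap. Both comparisons use the same GFP libraries.

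**Figure D1:**
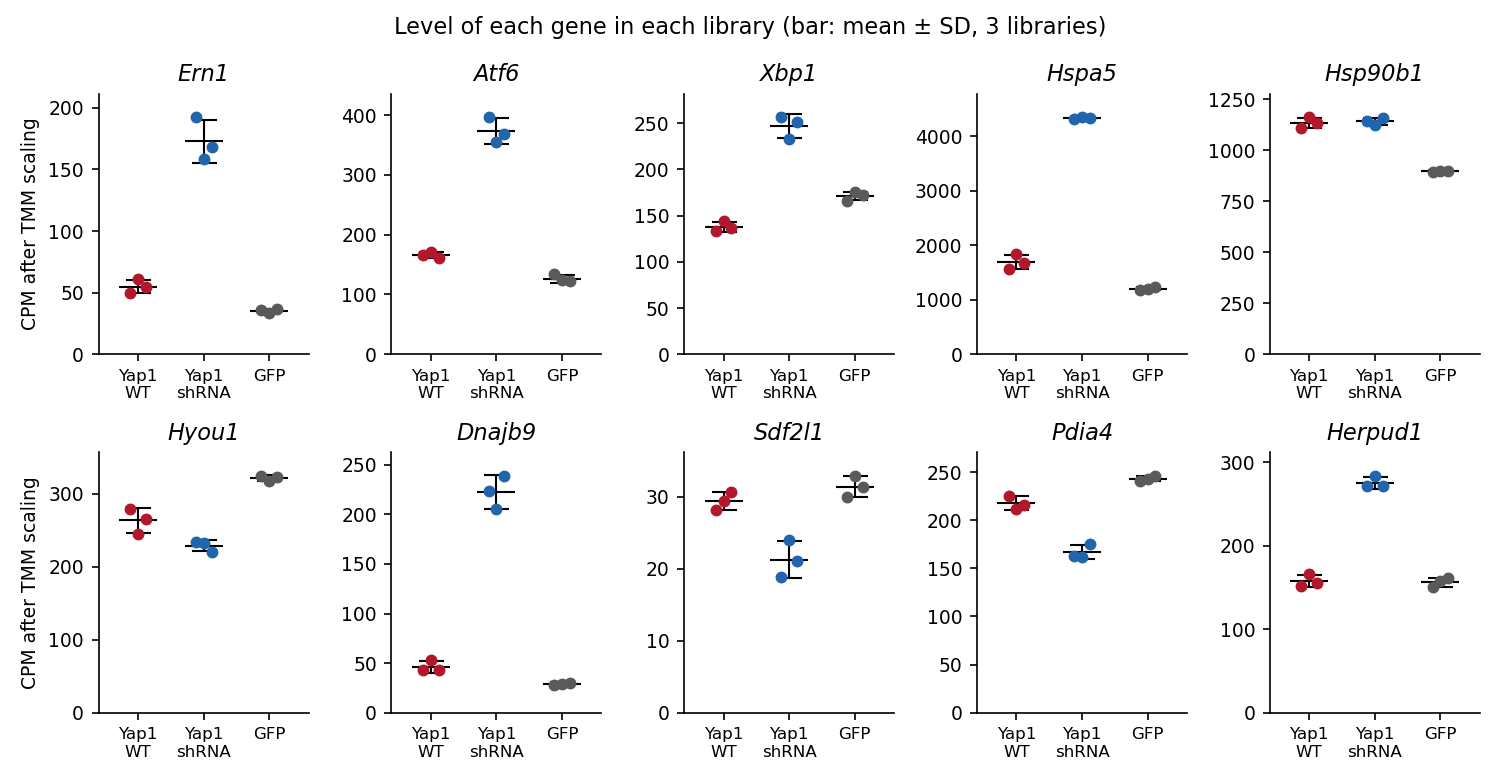
Level of each of the 10 genes in every library, in CPM after TMM scaling on an axis that starts at 0, with points for libraries and black bars for the mean ± SD of 3. Ern1, Atf6, Hspa5 and Dnajb9 stand far higher in the Yap1 shRNA libraries than in the others, while Hyou1, Sdf2l1 and Pdia4 are lowest there.

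Ern1, the gene of the IRE1 sensor (NCBI gene 498013, chromosome 10, 94588555 to 94682072, minus strand, on rn6), had 49.8, 60.7 and 54.4 CPM with Yap1 WT, 192, 159 and 168 CPM with Yap1 shRNA, and 36.0, 33.8 and 36.4 CPM with GFP. All Yap1 WT libraries lay above all GFP libraries, and all Yap1 shRNA libraries above both. It rose 1.55-fold in Yap1 WT (log2 fold change of 0.64, SE 0.09, adjusted p = 3.28e-05) and 4.89-fold with Yap1 shRNA (2.29, SE 0.09, adjusted p = 8.3e-11). On 500 to 535 reads per GFP library and 941 to 1204 per Yap1 shRNA library, it was by mean TPM the least abundant of the 10 per unit length, at 10.9 ± 1.08 TPM with Yap1 WT, 35.8 ± 4.99 TPM with Yap1 shRNA and 6.30 ± 0.34 TPM with GFP.

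Atf6, the gene of the sensor that is itself the precursor of a transcription factor (NCBI gene 304962, chromosome 13, 89053457 to 89242531, minus strand), had 166, 171 and 162 CPM with Yap1 WT, 396, 354 and 368 CPM with Yap1 shRNA, and 134, 123 and 122 CPM with GFP. The 3 groups did not overlap. The level was 1.32-fold higher in Yap1 WT (a log2 fold change of 0.40, SE 0.06, adjusted p = 6.51e-05) and 2.95-fold higher with Yap1 shRNA (1.56, SE 0.06, adjusted p = 9.25e-11). The deposited TPM gave a larger change than the counts, a log2 fold change of 0.72 with Yap1 WT and 2.20 with Yap1 shRNA on log2(TPM + 1).

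Part of this gap was common to other genes: on log2(TPM + 1) the median of all genes lay at 0.136 with Yap1 WT and 0.156 with Yap1 shRNA, and the log2 ratio of mean TPM of Hspa5 was 0.66 with Yap1 WT and 2.06 with Yap1 shRNA, beside 0.49 and 1.85 from its counts. Atf6 differed from the other 9 genes in the transcript length that the authors' estimates imply. Dividing a gene's expected count by its FPKM (fragments scaled to transcript length and library size) and by the library total gives the length, in bases, over which the reads of a gene were spread; where a gene has several transcripts, a mixture of shorter ones gives a smaller value. For Atf6, which has 3 transcripts in the table, this length was 5877, 5835 and 5924 bases with Yap1 WT, 4462, 4954 and 5005 bases with Yap1 shRNA, and 6468, 6642 and 6960 bases with GFP. The groups did not overlap, and the means stood at 0.879 and 0.719 times the GFP mean. Over 10930 genes with at least 1 FPKM in every library, the middle 90% of these ratios lay between 0.969 and 1.02 for Yap1 WT and between 0.952 and 1.03 for Yap1 shRNA. In Yap1 shRNA 22 of those genes (0.201%) were at or below Atf6, and in Yap1 WT 66 (0.604%). The other 9 genes of the set had ratios from 0.996 to 1.00. For Yap1, the targeted gene, the implied length was 2060 to 2270 bases with Yap1 WT, 4111 to 4347 with Yap1 shRNA and 4340 to 4348 with GFP. Its log2 ratio of mean TPM with Yap1 WT over GFP was 2.94, beside 1.77 from its counts. The files give no value per transcript, so which Atf6 transcripts gained or lost reads was not analysed here.

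**Figure D2:**
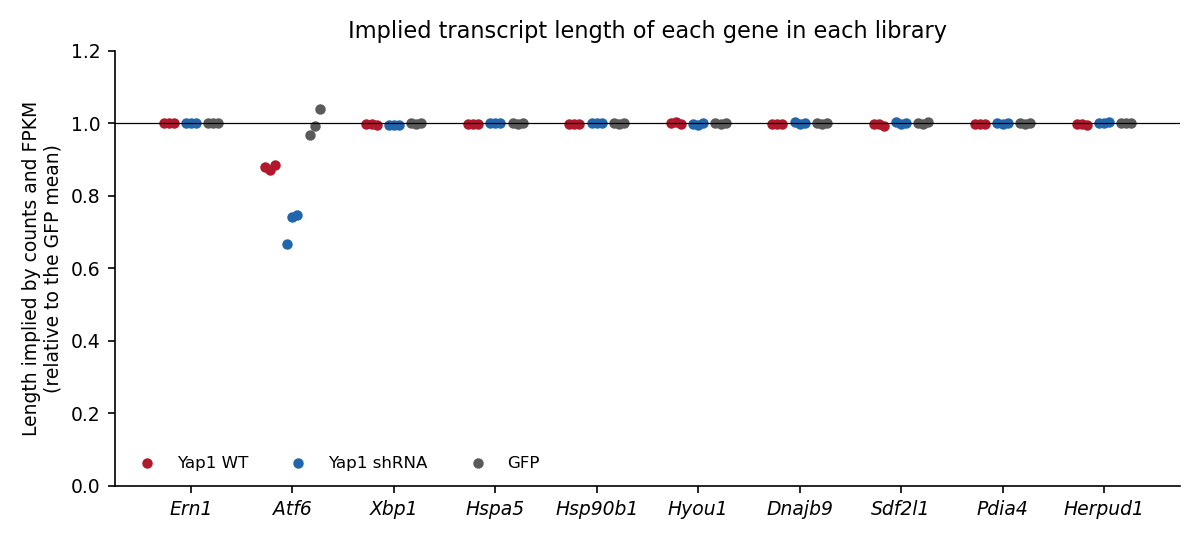
Length implied by expected counts, FPKM and library totals for each of the 10 genes, as a ratio to the GFP mean, with a point for each library. The points of Atf6 lie below 1 in all 3 Yap1 WT and all 3 Yap1 shRNA libraries, while those of the other 9 genes lie at 1.

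Xbp1, the transcription factor downstream of IRE1 (NCBI gene 289754, chromosome 14, 85753736 to 85758820, plus strand), moved in opposite directions in the Yap1 groups. It had 134, 144 and 136 CPM with Yap1 WT, 256, 232 and 251 CPM with Yap1 shRNA, and 166, 175 and 172 CPM with GFP. The Yap1 WT libraries lay below all GFP libraries (log2 fold change -0.31, SE 0.05, adjusted p = 0.000259) and the Yap1 shRNA libraries above them (0.53, SE 0.05, adjusted p = 1.13e-06). The direct test put Xbp1 at 1.79-fold lower in Yap1 WT than in Yap1 shRNA (-0.84, SE 0.06, adjusted p = 5.3e-08). The fall with Yap1 WT did not pass on log2(TPM + 1) with limma-trend (-0.14, adjusted p = 0.0607). Reads were counted per gene, so spliced and unspliced Xbp1 messages are not separated.

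Among the chaperones, Hspa5 dominated (NCBI gene 25617, chromosome 3, 13838304 to 13844076, plus strand). It encodes BiP, the ER member of the HSP70 family, and had 1567, 1832 and 1675 CPM with Yap1 WT, 4311, 4352 and 4342 CPM with Yap1 shRNA, and 1180.5, 1190.4 and 1234 CPM with GFP. The Yap1 shRNA libraries lay close together and far above the other groups, and the Yap1 WT libraries lay above all GFP libraries. The change was 3.61-fold with Yap1 shRNA (log2 fold change 1.85, SE 0.06, adjusted p = 4.05e-11) and 1.41-fold with Yap1 WT (0.49, SE 0.06, adjusted p = 1.24e-05). By mean TPM, BiP's message ranked 173rd of all genes with Yap1 WT, 56th with Yap1 shRNA and 259th with GFP.

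Dnajb9, whose product ERdj4 is a BiP cochaperone of the DnaJ family, changed most (NCBI gene 24908, chromosome 6, 64165913 to 64170122, minus strand). It had 42.7, 53.0 and 43.3 CPM with Yap1 WT, 223, 205 and 239 CPM with Yap1 shRNA, and 27.5, 29.4 and 30.3 CPM with GFP. No library of one group overlapped another group. The rise was 7.65-fold with Yap1 shRNA (log2 fold change 2.94, SE 0.09, adjusted p = 1.91e-11) and 1.59-fold with Yap1 WT (0.67, SE 0.09, adjusted p = 2.88e-05). In the GFP libraries it stood 9th of the 10 by TPM, with a range that overlapped that of Atf6, and in the Yap1 shRNA libraries it stood 5th.

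Hsp90b1, which encodes GRP94, the ER member of the HSP90 family (NCBI gene 362862, chromosome 7, 27226570 to 27240533, minus strand), had 1109, 1161 and 1130.3 CPM with Yap1 WT, 1140.4, 1125 and 1156 CPM with Yap1 shRNA, and 892, 900.03 and 899 CPM with GFP. Both Yap1 groups lay above GFP and overlapped each other. Hsp90b1 was 1.26-fold higher in Yap1 WT (a log2 fold change of 0.34, SE 0.05, adjusted p = 3.86e-05) and 1.27-fold with Yap1 shRNA (0.35, SE 0.05, adjusted p = 1.68e-05). The direct difference of Yap1 WT from Yap1 shRNA did not pass (-0.01, SE 0.05, adjusted p = 0.879).

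Hyou1, an ER chaperone that also releases nucleotide from BiP, was lower in both Yap1 groups (NCBI gene 192235, chromosome 8, 48699796 to 48711912, plus strand). It had 280, 245 and 266 CPM with Yap1 WT, 234, 233 and 220 CPM with Yap1 shRNA, and 325, 318 and 323 CPM with GFP. The groups did not overlap in CPM, while in TPM Yap1 WT overlapped both others. The fall was 1.22-fold in Yap1 WT (a log2 fold change of -0.29, SE 0.06, adjusted p = 0.000545), and the log2 fold change in Yap1 shRNA was larger (-0.49, SE 0.06, adjusted p = 3.32e-06). On log2(TPM + 1) the fall with Yap1 WT did not pass (-0.13, adjusted p = 0.104 in limma-trend).

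Pdia4, a disulphide isomerase that forms and rearranges disulphide bonds (NCBI gene 116598, chromosome 4, 77470636 to 77489535, minus strand), had 226, 211 and 216 CPM with Yap1 WT, 163, 162 and 175 CPM with Yap1 shRNA, and 241, 243 and 246 CPM with GFP. The groups did not overlap on this scale. The fall was 1.46-fold with Yap1 shRNA (log2 fold change -0.54, SE 0.05, adjusted p = 4.6e-07) and 1.12-fold with Yap1 WT (-0.16, SE 0.05, adjusted p = 0.0125). The small fall with Yap1 WT was lost with library size as the only scaling (-0.03, adjusted p = 0.661) and on log2(TPM + 1) (0.00, adjusted p = 0.977).

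Sdf2l1 is part of a chaperone complex with BiP and DnaJ proteins (NCBI gene 680945, chromosome 11, 88122271 to 88124513, plus strand). With Yap1 WT and with Yap1 shRNA, but not with GFP, it had the fewest reads of the set, at 118 to 142 per Yap1 shRNA library. It had 28.1, 29.4 and 30.7 CPM with Yap1 WT, 18.9, 24.0 and 21.1 CPM with Yap1 shRNA, and 30.0, 33.0 and 31.4 CPM with GFP. The Yap1 shRNA libraries lay below all others, while Yap1 WT and GFP overlapped. The fall with Yap1 shRNA was 1.48-fold (log2 fold change -0.56, SE 0.09, adjusted p = 7.19e-05), and the value with Yap1 WT did not pass (-0.10, SE 0.08, adjusted p = 0.307).

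Herpud1, which encodes a membrane protein of ER-associated degradation (NCBI gene 85430, chromosome 19, 11046905 to 11057440, minus strand), had 152, 166 and 155 CPM with Yap1 WT, 271, 284 and 272 CPM with Yap1 shRNA, and 150, 158 and 161 CPM with GFP. Yap1 WT and GFP libraries overlapped and Yap1 shRNA libraries stood apart. It rose 1.76-fold with Yap1 shRNA (log2 fold change 0.82, SE 0.05, adjusted p = 1.1e-08), and the value with Yap1 WT was 0.01 (SE 0.05, adjusted p = 0.868). With library size alone the value with Yap1 WT was 0.15 (adjusted p = 0.0268) and on log2(TPM + 1) 0.17 (adjusted p = 0.00897), so that call turned with the scaling.

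**Figure D3:**
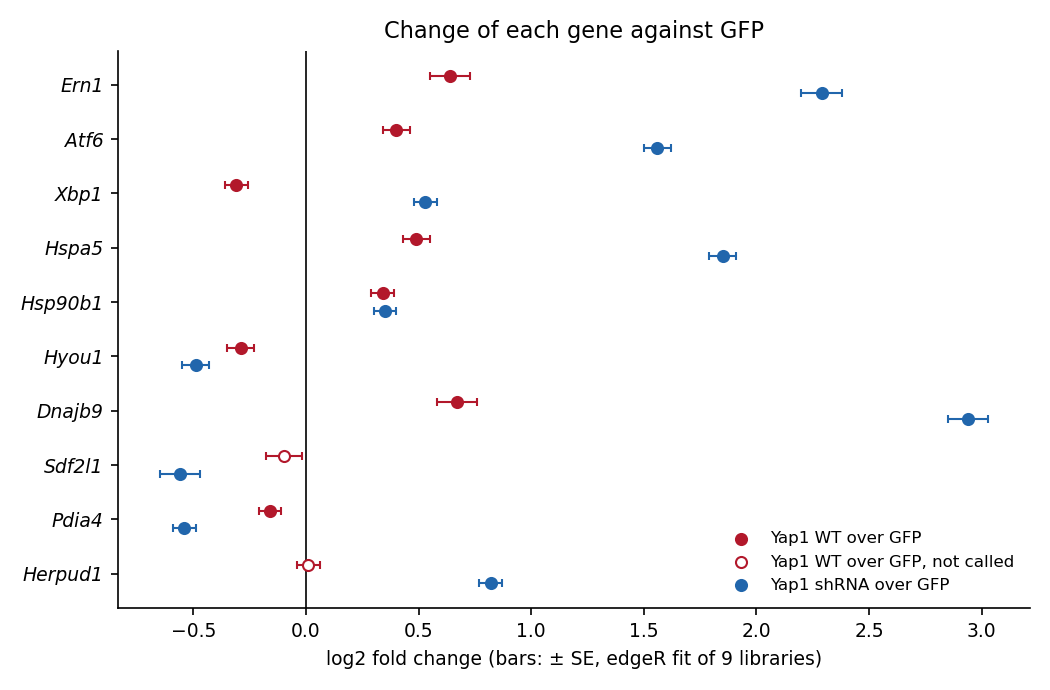
Log2 fold change of each gene in Yap1 WT over GFP and in Yap1 shRNA over GFP, with bars of ± SE from the fit of 9 libraries and open circles for values that did not pass. The values with Yap1 shRNA run from -0.56 for Sdf2l1 to 2.94 for Dnajb9, and those with Yap1 WT from -0.31 for Xbp1 to 0.67 for Dnajb9.

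Set directly against each other, Yap1 WT and Yap1 shRNA differed in 9 of the 10 genes, where 62.5% of all genes differed (31.2% higher and 31.3% lower), and 4 of 10 differed at least 2-fold, where 14.2% did. The CPM ranges were apart for those 9 genes, where 66.1% of all genes were apart. With Yap1 WT, 6 were lower (Dnajb9, Ern1, Hspa5, Atf6, Xbp1 and Herpud1) and 3 were higher (Sdf2l1, Pdia4 and Hyou1). The log2 fold changes of Yap1 WT over Yap1 shRNA ran from -2.26 for Dnajb9 (SE 0.09, adjusted p = 1.26e-09) to 0.47 for Sdf2l1 (SE 0.09, adjusted p = 0.000674), with a median of -0.82 beside 0.04 over all genes tested. That of Hyou1 was the smallest of those that passed, at 0.20 (SE 0.06, adjusted p = 0.00732), and did not pass on log2(TPM + 1) (adjusted p = 0.0688). In the authors' deposited table, read in the same direction, the values were -2.27 for Dnajb9, -1.36 for Hspa5 and 0.46 for Sdf2l1.

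Ratios of 2 messages within a library do not depend on how libraries are scaled to one another. They restate the changes given above for pairs of genes, and a ratio does not tell which of its 2 messages moved. The TPM of Hspa5 was 9.97, 13.3 and 11.2 times that of Hyou1 with Yap1 WT, 32.7, 33.1 and 35.1 times with Yap1 shRNA, and 6.47, 6.67 and 6.78 times with GFP. The ratio of Hspa5 to Pdia4 was 6.24 to 7.79 with Yap1 WT, 22.3 to 24.1 with Yap1 shRNA and 4.40 to 4.50 with GFP. Hspa5 to Hsp90b1 averaged 1.65 ± 0.09 with Yap1 WT, 4.20 ± 0.07 with Yap1 shRNA and 1.48 ± 0.03 with GFP (SD, n = 3). Dnajb9 to Sdf2l1 averaged 0.757 ± 0.099 with Yap1 WT, 5.09 ± 0.85 with Yap1 shRNA and 0.445 ± 0.018 with GFP. The groups did not overlap in these 4 ratios. In TPM the ratio of Ern1 to Atf6 was 0.260 to 0.305 with Yap1 WT, 0.319 to 0.337 with Yap1 shRNA and 0.256 to 0.306 with GFP. Yap1 WT and GFP thus overlapped in TPM, which carries the shift in the implied length of Atf6. In expected counts this ratio was 0.300 to 0.354 with Yap1 WT, 0.448 to 0.485 with Yap1 shRNA and 0.269 to 0.298 with GFP. The groups did not overlap on counts. The TPM ratio of Hsp90b1 to Pdia4 averaged 4.24 ± 0.24 with Yap1 WT, 5.57 ± 0.17 with Yap1 shRNA and 3.00 ± 0.03 with GFP. All 6 pairs were chosen with the values known and carry no test.

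**Figure D4:**
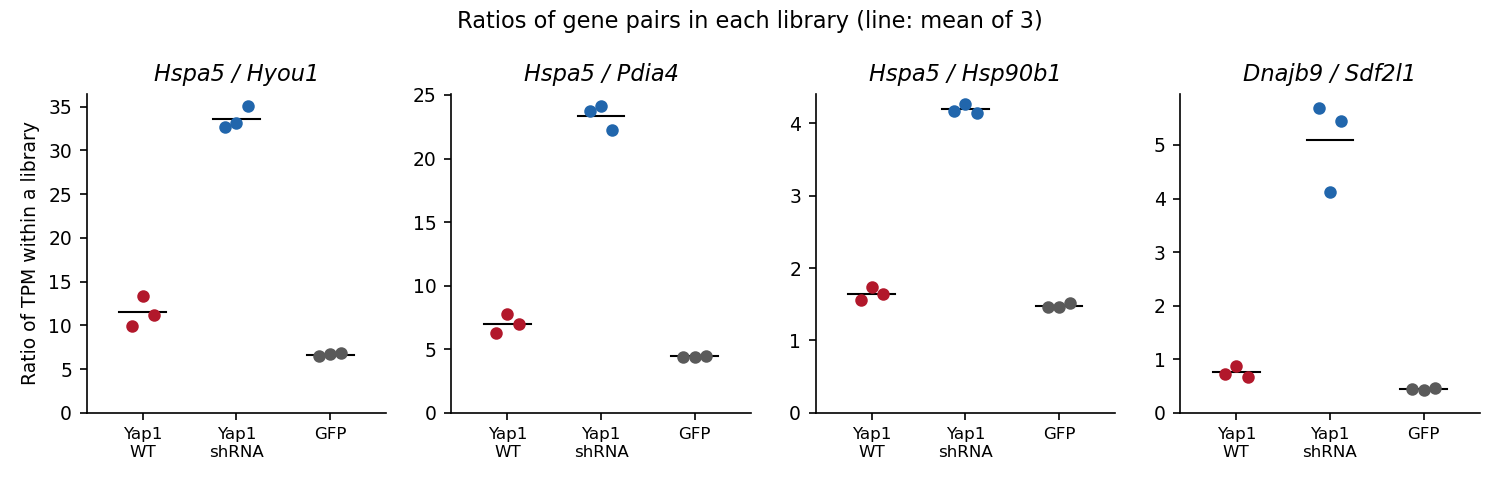
Ratio of the TPM of 2 genes within each library for 4 pairs, on axes that start at 0, with a line at the mean of 3 libraries. In each pair the Yap1 shRNA libraries are highest, the Yap1 WT libraries lie between, and the GFP libraries are lowest, from 4.20 against 1.48 on average for Hspa5 to Hsp90b1.

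Together the 10 messages took 0.215% to 0.233% of all TPM with Yap1 WT, 0.414% to 0.448% with Yap1 shRNA and 0.162% to 0.166% with GFP. Of their sum, Hspa5 held 43.3% to 46.3% with Yap1 WT, 61.1% to 62.1% with Yap1 shRNA and 38.0% to 38.9% with GFP, and Hsp90b1 held 26.6% to 27.8% with Yap1 WT, 14.5% to 14.8% with Yap1 shRNA and 25.6% to 26.2% with GFP. The order by TPM in GFP was Hspa5, Hsp90b1, Pdia4, Xbp1, Herpud1, Hyou1, Sdf2l1, Atf6, Dnajb9 and Ern1, and neighbours overlapped in range only at Atf6 and Dnajb9. With Yap1 shRNA the order was Hspa5, Hsp90b1, Herpud1, Xbp1, Dnajb9, Pdia4, Atf6, Hyou1, Sdf2l1 and Ern1, with overlaps of Herpud1 with Xbp1, Pdia4 with Atf6 and Sdf2l1 with Ern1. With Yap1 WT the order differed from that in GFP by Herpud1 standing above Xbp1, and Pdia4 overlapped Herpud1 and Atf6 overlapped Dnajb9.

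Under TMM, the counts of the lists that follow stand beside 32% of all genes higher and 31.8% lower with Yap1 WT, and 39.2% higher and 39.1% lower with Yap1 shRNA. Other settings have other backgrounds. With library size alone, 5637 of 13708 genes were higher and 3344 lower with Yap1 WT. On log2(TPM + 1) these numbers were 5419 and 2894 with Yap1 WT, and 6294 and 4242 with Yap1 shRNA. With no count filter, 4196 of 18610 genes were higher and 4736 lower with Yap1 WT, and 5490 and 5899 with Yap1 shRNA. Among 7 other ER stress sensors and ATF6-cutting proteases, none was higher and 4 were lower with Yap1 WT, and 1 was higher and 5 were lower with Yap1 shRNA (median log2 fold changes -0.15 and -0.52). With Yap1 WT, 2 were lower with library size as the only scaling or without GFP replicate 3, and 1 on log2(TPM + 1). The one that rose with Yap1 shRNA was PERK (Eif2ak3, named after its value was seen), at 38.2 ± 4.45 CPM with Yap1 shRNA against 29.8 ± 1.61 CPM with GFP (0.36, SE 0.09, adjusted p = 0.00212). Atf6b, the close relative of Atf6, fell to 92.3 ± 4.84 CPM with Yap1 shRNA against 133 ± 1.92 CPM with GFP (-0.52, SE 0.06, adjusted p = 3.48e-06). Creb3l2, a related membrane-bound transcription factor, fell 2.33-fold with Yap1 shRNA, and Mbtps1, the first protease to cut ATF6, fell 1.70-fold. Creb3 had a log2 fold change of 0.08 with Yap1 shRNA that did not pass, and of 0.28 on log2(TPM + 1) that did. Creb3l1 was lower with Yap1 shRNA (-0.28), a call lost on log2(TPM + 1) (-0.06, adjusted p = 0.332).

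Of 20 other ER folding genes, 4 were higher and 7 lower with Yap1 WT, and 6 were higher and 12 lower with Yap1 shRNA (medians -0.08 and -0.28), where 63.8% of all genes passed with Yap1 WT and 78.3% with Yap1 shRNA. The count with Yap1 WT turned to 7 higher and 5 lower with library size as the only scaling, and to 8 higher and 4 lower on log2(TPM + 1), with medians of 0.059 and 0.085. On log2(TPM + 1) the count with Yap1 shRNA was 6 higher and 8 lower. The BiP cochaperone Dnajc3 rose 2.57-fold with Yap1 shRNA, to 172 ± 15.7 CPM against 66.9 ± 2.06 CPM with GFP (log2 fold change 1.36, SE 0.07, adjusted p = 8.93e-10), and Creld1 fell 1.95-fold. The disulphide isomerase P4hb rose 1.16-fold there and its relative Pdia3 1.15-fold, the call of Pdia3 being lost with no count filter (0.12, adjusted p = 0.0713). Calreticulin (Calr) was lower with Yap1 shRNA (-0.19) on counts only, with 0.02 on log2(TPM + 1) (adjusted p = 0.683).

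Of 13 other genes of ER-associated degradation, 4 were higher and 4 lower with Yap1 WT, and 6 were higher and 3 lower with Yap1 shRNA (medians 0.06 and 0.15). On log2(TPM + 1) these counts were 6 higher and 0 lower with Yap1 WT, and 8 higher and 2 lower with Yap1 shRNA. The ubiquitin-conjugating enzyme Ube2j1 rose 2.41-fold with Yap1 shRNA, Derl1 of the exit channel 1.66-fold, the extracting ATPase Vcp 1.64-fold and Selenos, a partner of that channel, 1.43-fold.

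Of 14 genes of protein entry into the ER, 2 were higher and 5 lower with Yap1 WT, and 5 were higher and 4 lower with Yap1 shRNA (medians -0.08 and 0.06). On log2(TPM + 1) they were 5 higher and 2 lower with Yap1 WT and 8 higher and 2 lower with Yap1 shRNA, with medians of 0.089 and 0.267. With no count filter 0 rose and 6 fell with Yap1 WT (a median of -0.125), and 3 rose and 5 fell with Yap1 shRNA (a median of -0.021). With Yap1 WT, 1 was higher without GFP replicate 2, without GFP replicate 3 or at equal depth. The channel subunit Sec61a1 rose 1.45-fold and Ssr3, of the complex beside the channel, 1.28-fold with Yap1 shRNA, while Ssr4 of the same complex fell (-0.38). Sec61g was lower with Yap1 shRNA (-0.28), a call lost on log2(TPM + 1) (-0.08, adjusted p = 0.102), and Sec61b did not pass (-0.09, adjusted p = 0.191) but did without GFP replicate 1 (-0.15, adjusted p = 0.0486).

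In the PERK and ATF4 branch, 11 of 13 genes were higher and 2 lower in each Yap1 group against GFP (medians 0.70 with Yap1 WT and 1.41 with Yap1 shRNA), where 32% of all genes were higher with Yap1 WT and 39.2% with Yap1 shRNA. The list is named for the branch, and the activity of PERK was not measured. Eif2ak3 itself did not pass with Yap1 WT (-0.04, SE 0.08, adjusted p = 0.727). Atf4, the transcription factor of this branch, stood at 638 ± 65.7 CPM with Yap1 WT and 1274 ± 40.7 CPM with Yap1 shRNA, against 479 ± 16.3 CPM with GFP. Ppp1r15a, which encodes the subunit that directs a phosphatase to eIF2 alpha, rose 2.62-fold with Yap1 WT and 8.03-fold with Yap1 shRNA, and Sesn2, a stress gene, rose 2.64-fold with Yap1 WT and 11.4-fold with Yap1 shRNA. Nupr1, which encodes a stress-induced nuclear protein, fell 1.81-fold with Yap1 shRNA, and its lower value with Yap1 WT (-0.21) did not pass on log2(TPM + 1) (-0.04, adjusted p = 0.523). Set directly against Yap1 shRNA, Yap1 WT was lower in 9 of the 13 genes and higher in 1. Of all genes, 31.3% were lower and 31.2% higher in that comparison.

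**Figure D5:**
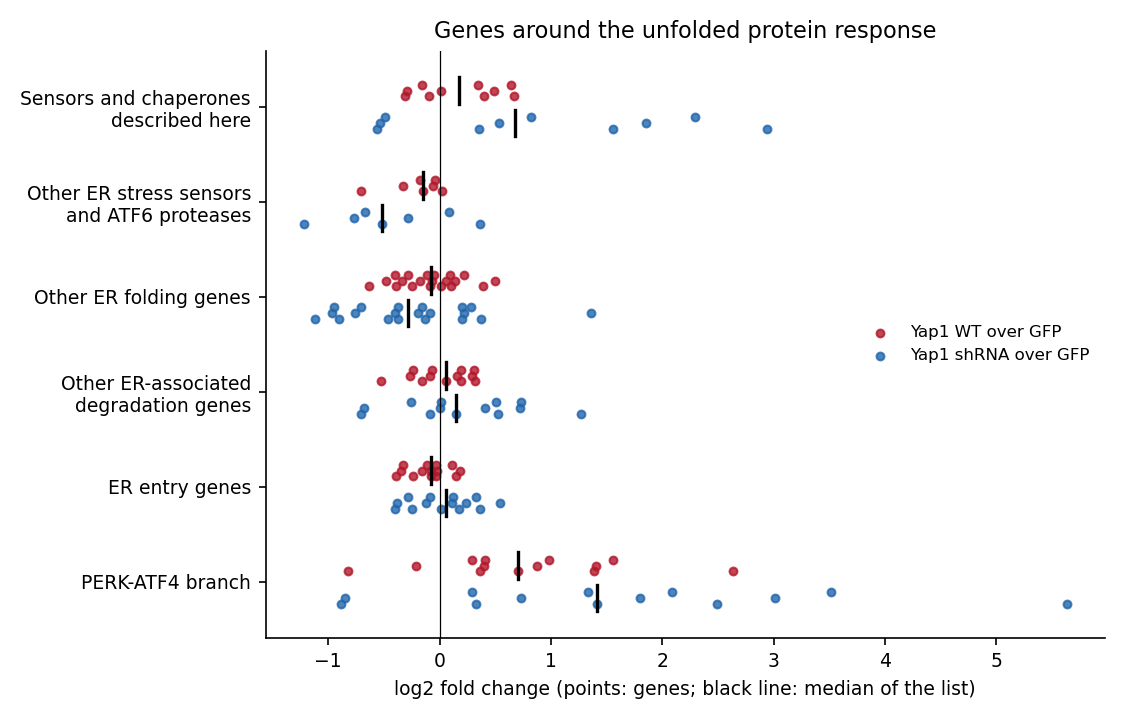
Log2 fold changes of Yap1 WT over GFP and of Yap1 shRNA over GFP for the 10 genes and for 5 lists around them, with a point for each gene and a black line at each list's median. The 10 genes and the PERK and ATF4 branch have their Yap1 shRNA medians at 0.67 and 1.41, while those of the other 4 lists lie between -0.52 and 0.15.

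The genes whose log2 CPM most resembled that of Hspa5 over the 9 libraries, among 10931 others with a mean of at least 5 CPM, were Rnd3, Ccnl1, Marcks, Ube2j1 and Trim35 (Pearson r from 0.9986 to 0.9995). The libraries fall into 3 groups that share their depth, so the likeness is a description and carries no test. Rnd3 stood at 138 CPM with Yap1 WT, 385 CPM with Yap1 shRNA and 98.1 CPM with GFP. By the same measure Dnajb9 ranked 20 among these genes, Ern1 51, Atf6 185, Herpud1 1255, Xbp1 3266 and Hsp90b1 3652, while the r of Hyou1, Sdf2l1 and Pdia4 was negative (-0.92, -0.93 and -0.99).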

How the data were processed

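The 10 genes and all gene lists were chosen with earlier results of these data known. Per the labels' protocols, polyadenylated RNA was captured with oligo(dT) and read on a BGISEQ-500; whether counting used strand is not given in the sources used here. HISAT2, Bowtie2, RSEM 1.3.1, DESeq2 1.4.5 and the rat build rn6 are named in the submitters' processing notes, without their roles. The deposited expected counts are given by the authors for every gene without normalization, and 89.8% were whole to 2 decimals. The deposited TPM and FPKM values were scaled by the authors per library, and each TPM column sums to 1000000. The authors also deposited log2 fold changes and DESeq2 q-values, per the file headers. A repeat of the value columns in another deposited file was not used.

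Expected counts were rounded, and all 9 libraries were fitted with edgeR 4.0.16 in R 4.3.3 (group as the only factor, TMM, filterByExpr, two-sided quasi-likelihood F test, Benjamini-Hochberg adjustment over 13708 genes, called at 0.05 with no fold minimum). Each SE was taken as the log2 fold change over the root of its F value, and the biological coefficient of variation was 7.18%. Motifs were matched exactly. Replicates differed by more than sampling noise, with a chi-square per degree of freedom of at least 2.34. Named were the 10 genes, Yap1, and of each surrounding list the 3 genes with the highest mean TPM and the 2 with the lowest p, plus the 5 genes most correlated with Hspa5 among those with a mean of at least 5 CPM; some genes that this rule or the marker lists hold are not reported here. Alternatives were RLE scaling, library size alone, DESeq2 1.42.0, limma-trend (limma 3.58.1) on log2(TPM + 1) and log2(TPM + 0.1), no count filter, at least 5 CPM in 3 libraries, a fit of the 6 libraries compared, a block on replicate number, thinning to equal depth, and leaving out each library in turn.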

Additional observations from a re-analysis of the deposited data

How the results depend on the processing

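The number of the 10 genes called was 8 with Yap1 WT against GFP, 10 with Yap1 shRNA against GFP and 9 with Yap1 WT against Yap1 shRNA, and under the alternatives run it was 6 to 8, 10 and 8 to 9, while the number of all genes called stayed within 1.5 times of its value; in fits that omit 1 library the counts of the 10 genes were the same and those of all genes lay at 7991 to 8979, 10410.0 to 10939 and 7934 to 8525. Of 570 values of single genes under alternatives, 547 kept direction and call, 7 kept direction but lost the call, 3 gained it and 13 changed sign, and the cause was not tested. On log2(TPM + 0.1) the values of Xbp1 and Hyou1 with Yap1 WT against GFP did not pass (adjusted p = 0.0616 and 0.106). Among the changes of sign, those of Herpud1, Sdf2l1 and Hsp90b1 concern values that did not pass, while Pdia4 with Yap1 WT, called lower at -0.16, also lost its call. For Herpud1 with Yap1 WT against GFP the value was -0.03 with no filter, -0.01 at equal depth and -0.03 to 0.03 in fits that omit 1 library. For Sdf2l1 it was 0.04 with library size alone and 0.07 on both TPM scales, and for Pdia4 0.00 on both TPM scales. For Hsp90b1 in Yap1 WT against Yap1 shRNA it was 0.11 with library size alone, 0.03 with no filter and -0.02 to 0.02 in fits that omit 1 library. Relative to TMM, library size alone and log2(TPM + 1) shifted the median of all genes with Yap1 WT against GFP to 0.138 and 0.136, and log2(TPM + 1) that with Yap1 shRNA to 0.156. The calls over all genes in these comparisons were 4391 higher and 4360 lower with Yap1 WT under TMM, 5637 and 3344 with library size alone, and 5419 and 2894 on log2(TPM + 1), and with Yap1 shRNA 5371 and 5362 under TMM and 6294 and 4242 on log2(TPM + 1). Same-numbered libraries of different groups had correlations of deviations between -0.03 and 0.09. With 3 libraries per group such values cannot exclude a shared culture or day, and the labels do not say whether the numbers pair the samples. With the replicate number as a block, 8, 10 and 9 of the 10 genes were called, and 8812, 10752 and 8590.0 of all genes in the same order of comparisons.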
